A study of Mus musculus with 13 samples.

Results

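Lymphatic endothelial cells line the vessels that drain fluid, antigen and leukocytes from the lung. A total of 123 such cells were found among the 37344 barcodes of the single-cell matrix, or 0.590% (95% exact binomial interval 0.490 to 0.703) of the 20856 barcodes that came from the lung libraries and had at most 10% mitochondrial transcripts. A cell was counted when it held at least 3 transcripts, each counted once by its unique molecular identifier (UMI), over Mmrn1, Prox1 and Ccl21a, with at least 2 of these 3 genes detected, and no UMI of Ptprc or Col1a1. The values of these 5 genes therefore chose the cells, and their levels below are a description. No doublet caller was run.

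The series holds 13 samples of mouse lung in 7 label groups. Asthma, Control, PPE-emphysema and PPE-recovery have 1 sample each, and Acute injury, Con and emphysema have 3 samples each. The mice were C57BL/6, the asthma model was made with ovalbumin, and the injury and emphysema models were made by instilling porcine pancreatic elastase (PPE) into the trachea. Each of the first 4 groups was sequenced from 1 mouse, whose lung was dissociated whole. Barcodes of the matrix end in a number from 1 to 7 that marks the library, and no label ties a library to a group. The libraries were therefore not compared as conditions, the matrix was treated as 1 sample, and every interval below covers counting error only.

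Lymphatic identity is set by the transcription factor Prox1, which acts with Nr2f2 and Sox18 to turn a venous endothelial cell into a lymphatic one. The receptor encoded by Flt4 (VEGFR3) then drives growth in response to the ligands VEGF-C and VEGF-D, with Nrp2 as its co-receptor. Capillary lymphatics take up fluid, carry Lyve1, a receptor for hyaluronan, and display the chemokine encoded by Ccl21a, which guides dendritic cells and T cells that carry Ccr7. Collecting lymphatics have valves, whose formation needs Foxc2, Gata2 and Gja1.

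The cells were spread very unevenly over the libraries. Library 1 held 8 of them, library 2 held 99, library 3 held 14 and library 7 held 2. Against all endothelial cells of the same library, the share was 1.63% (0.707 to 3.19) in library 1, 6.33% (5.18 to 7.66) in library 2, 1.98% (1.09 to 3.30) in library 3 and 0.971% (0.118 to 3.46) in library 7. The interval of library 2 thus lay above those of the other libraries. After thinning to 1000 UMIs a cell, the order was the same, at 2.09%, 6.89%, 2.28% and 1.05% in libraries 1, 2, 3 and 7. Libraries 1, 2, 3 and 7 had 50552002, 79439569, 47364075 and 34606626 UMIs in all, with a median of 6173, 7189, 5792.5 and 6019 per barcode. Whether the difference came from the animal, from its treatment or from the dissociation cannot be told apart. The 7 libraries shared 153 barcode sequences over 21 pairs, and none of the 123 cells had its barcode in another library.

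**Figure D1:**
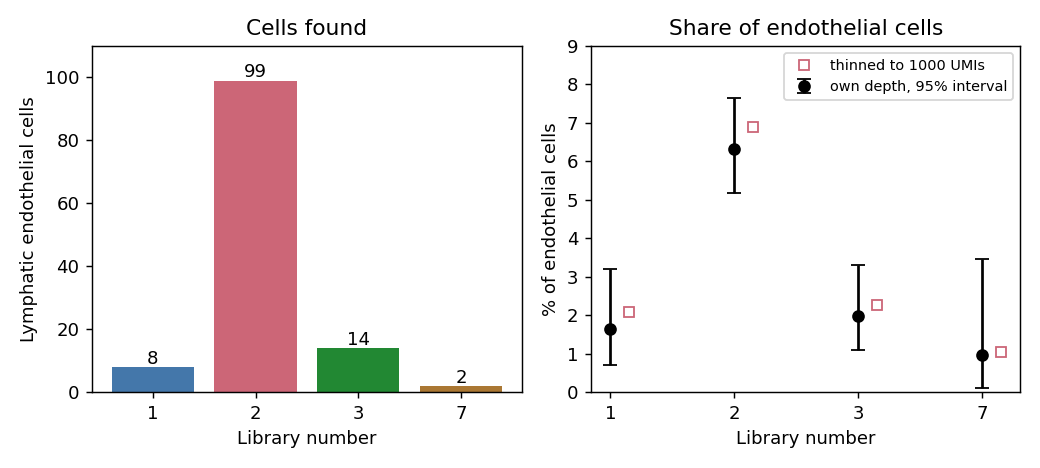
Left, the number of lymphatic endothelial cells in each lung library. Right, their share of all endothelial cells of the library, with 95% exact binomial intervals (black) and after thinning to 1000 UMIs (open squares). Library 2 holds 99 of the 123 cells and has a share of 6.33%, with an interval above those of the other libraries.

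The lymphatic cells were deeply covered, with a median of 7640 UMIs and 3063 genes per cell and 4.21% mitochondrial UMIs. Vascular endothelial cells, which served as the comparison, numbered 2843 with a median of 5133 UMIs. They were taken as other cells with at least 3 UMIs over Cdh5, Pecam1 and Cldn5, at least 2 of these detected, and no UMI of Ptprc, Col1a1 or Prox1. Values are given as UMIs per 1000000 UMIs (CPM), summed over the cells of a class.

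The 3 genes of the rule were far above the limit of 3 UMIs in most cells. Their summed UMIs ran from 3 to 1407 per cell with a median of 256, 110 cells held all 3 genes, and 5 cells had fewer than 10 of these UMIs. Ccl21a (ENSMUSG00000094686, chr4:42772860-42773993, GRCm38) reached 25903, 23665, 30342 and 16016 CPM in libraries 1, 2, 3 and 7, against 4.74 CPM in vascular cells. Without library 2 the vascular cells held 6 Ccl21a UMIs, and the log2 ratio of lymphatic to vascular cells went from 12.33 to 15.32. Mmrn1 (ENSMUSG00000054641, chr6:60924976-60989378), which encodes the secreted glycoprotein multimerin, stood at 3057, 3480, 3375 and 3193 CPM, and Prox1 (ENSMUSG00000010175, chr1:190118035-190170714) at 595, 522, 495 and 213 CPM. These levels were set by the choice of the cells, and the Prox1 value of library 7 rests on 4 UMIs. Of 1489 B cells, which should lack these genes, 1.75% had a Ccl21a UMI, 0.134% a Mmrn1 UMI and 0.403% a Prox1 UMI at a median of 4351 UMIs, and 97.6%, 99.2% and 92.7% of lymphatic cells had one. Near-identical copies of the Ccl21 and Ccl19 genes lie on chromosome 4 and on unplaced scaffolds, so the division of reads among copies is uncertain. The copy Gm21541 held 187 UMIs in the lymphatic cells, Ccl21c held 12 and Gm10600, in the same stretch of chromosome 4, held 236 of its 990 UMIs in all cells, against 32263 for Ccl21a, while Ccl19 was at 0.

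At the lower limit, 2 cells had 3 marker UMIs, with no UMI of Lyve1, Flt4, Reln or Pdpn in either. One of them, in library 2, was the deepest cell of all at 83176 UMIs, of which 34089 were Scgb1a1, the main secreted protein of airway club cells, and 419 were Cyp2f2, a club cell enzyme. It held 2 Prox1 UMIs and 1 Ccl21a UMI, so the data went against its label. Without it, the remaining 122 cells had 26114 CPM of Ccl21a, 3660 of Mmrn1, 555 of Prox1 and 1265 of Flt4, and their Scgb1a1 level was 544 in place of 26362 CPM. Just outside the rule, 4 cells had at least 3 UMIs of a single marker gene, and 2 cells had 2 UMIs in all. A further 36 cells met the marker limit but held a Ptprc or Col1a1 UMI, at a median of 14737 UMIs per cell. They had 17181 CPM of Ccl21a, and 31 of them had a Flt4 UMI and 30 a Reln UMI. The rule thus left out cells with lymphatic transcripts, and without its limit on Ptprc and Col1a1 the count was 159. Whether each of these barcodes held a single cell was not tested.

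Of the genes that the rule did not use, Flt4, Reln and Pdpn bore out the label over the cells as a whole. They did not do so in the 2 cells at the lower limit. In the wider list of 18 identity genes given below, 13 were called higher, and Lyve1, Sox18, Hhex, Fgl2 and Clca3a1 were not. Lyve1 was lower than in vascular cells in libraries 1 and 7. Flt4 (ENSMUSG00000020357, chr11:49609263-49652739) was at 1336, 1108, 1576 and 1649 CPM in libraries 1, 2, 3 and 7 and had a UMI in 98.4% of lymphatic cells, 31.3% of vascular cells and 0.134% of B cells. Reln (ENSMUSG00000042453, chr5:21884454-22344702), which encodes the large secreted protein reelin, was at 778, 836, 760 and 851 CPM, with UMIs in 93.5% of lymphatic cells, 0.176% of vascular cells and 1.55% of B cells. Its 4 values were close to each other and the groups did not overlap in any library. Pdpn (ENSMUSG00000028583, chr4:143267431-143299564), the membrane mucin podoplanin, was at 101, 291, 251 and 106 CPM against 3.64 in vascular cells, and its log2 ratio of 6.21 was 5.61 without library 2.

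The promoters of 4 genes described above are shown so that the letters searched can be seen in place. They were picked from 21 windows of 17 marker genes with the matches known, as 3 that hold a match and 1, Flt4, that holds none. Of the 21 windows, 6 held a match, those of Mmrn1, Reln, Pdpn, Gm525, Stab2 and 1 of Slc45a3, and none was found for Prox1, Ccl21a, Flt4, Nrp2, Tbx1, Ptx3, Apba2, Pcsk6, Dtx1, Hoxd9 or Kcnj8. Each runs from 250 bases before to 50 after the gene's start in RefSeq (GRCm38.p6), 5′ to 3′ on the gene's strand and capitals mark matches to short motifs of SOX, GATA, NR2F, MAF and ETS factors, each searched on both strands. The Mmrn1 window (chr6:60944067-60944366, plus strand) lies inside the gene as GENCODE M21 draws it, because the RefSeq start is further downstream. It holds a SOX and a MAF match, the Reln window (chr5:22344656-22344955, minus strand) an ETS match on the opposite strand, and the Pdpn window (chr4:143299515-143299814, minus strand) an NR2F match. The Flt4 window is chr11:49609429-49609728 on the plus strand.
Mmrn1: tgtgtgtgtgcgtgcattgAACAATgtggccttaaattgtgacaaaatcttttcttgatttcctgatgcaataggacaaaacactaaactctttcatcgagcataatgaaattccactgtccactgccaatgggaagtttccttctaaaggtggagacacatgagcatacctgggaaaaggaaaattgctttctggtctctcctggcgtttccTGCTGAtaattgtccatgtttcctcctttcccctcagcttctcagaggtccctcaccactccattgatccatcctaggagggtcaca
Reln: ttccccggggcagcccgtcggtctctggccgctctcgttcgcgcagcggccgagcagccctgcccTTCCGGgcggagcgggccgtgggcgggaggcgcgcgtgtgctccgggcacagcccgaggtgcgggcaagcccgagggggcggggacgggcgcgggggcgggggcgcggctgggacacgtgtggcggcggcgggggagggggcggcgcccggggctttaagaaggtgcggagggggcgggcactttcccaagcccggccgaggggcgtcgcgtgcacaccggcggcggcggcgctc
Pdpn: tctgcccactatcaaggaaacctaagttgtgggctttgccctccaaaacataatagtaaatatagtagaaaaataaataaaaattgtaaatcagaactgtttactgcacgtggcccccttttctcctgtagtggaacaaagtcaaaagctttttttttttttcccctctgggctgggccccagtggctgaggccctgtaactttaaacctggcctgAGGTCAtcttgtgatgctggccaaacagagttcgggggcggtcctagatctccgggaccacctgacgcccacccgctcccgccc
Flt4: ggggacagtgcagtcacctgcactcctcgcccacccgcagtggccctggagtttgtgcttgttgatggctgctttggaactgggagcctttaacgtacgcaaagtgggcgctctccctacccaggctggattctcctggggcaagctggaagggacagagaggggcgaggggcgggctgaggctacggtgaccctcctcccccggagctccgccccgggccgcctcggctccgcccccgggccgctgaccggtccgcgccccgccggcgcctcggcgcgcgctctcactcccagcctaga
The SOX motif searched was AACAAT, found in 10.9% of all 27025 promoters, 5.51% of the 5007 promoters of genes tested below and 5.65% of the 301 promoters of genes called higher in lymphatic cells. The MAF motif was TGCTGA, with shares of 19.3%, 13.6% and 13.6% in the same order. For the ETS motif CCGGAA the shares were 15.1%, 30.3% and 16.6%. The NR2F motif AGGTCA was found in 16.2%, 12.0% and 11.3% of these promoters. None of the 4 windows held the GATA motif AGATAA, which occurred in 11.4%, 5.39% and 5.98%. In the 485 promoters of genes called lower in lymphatic cells, the SOX, MAF and ETS shares were 8.25%, 16.7% and 15.3%. Those of NR2F and GATA were 11.1% and 6.19%. The ETS share was thus below that of the tested genes in both the higher and the lower genes. A match is a description of the letters and not a binding site.

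To see how lymphatic cells differed from blood vessel endothelium, the CPM of 6326 genes with a mean of at least 25 CPM over both classes was compared. A gene was called when it differed by at least 2-fold over all libraries together and in the same direction in each of the 4 libraries. Of the genes tested, 395 (6.24%) were higher and 666 (10.5%) lower in lymphatic cells, and the median log2 ratio over all genes was -0.0071. The counts of each gene list below are to be read beside these shares. Both classes were chosen from these same cells, so the calls are descriptions without a test. With 2 cells in library 7, a gene without a UMI there could not be called higher. Such a gene counted as lower there whenever the vascular cells of library 7 held a UMI. Library 7 was thus a weak check on the lower calls. Without the direction rule 590 (9.33%) were higher and 740 (11.7%) lower. Library 2 held 1047156 of the 1318600 UMIs of the lymphatic cells, and without it 556 genes were higher and 753 lower.

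**Figure D2:**
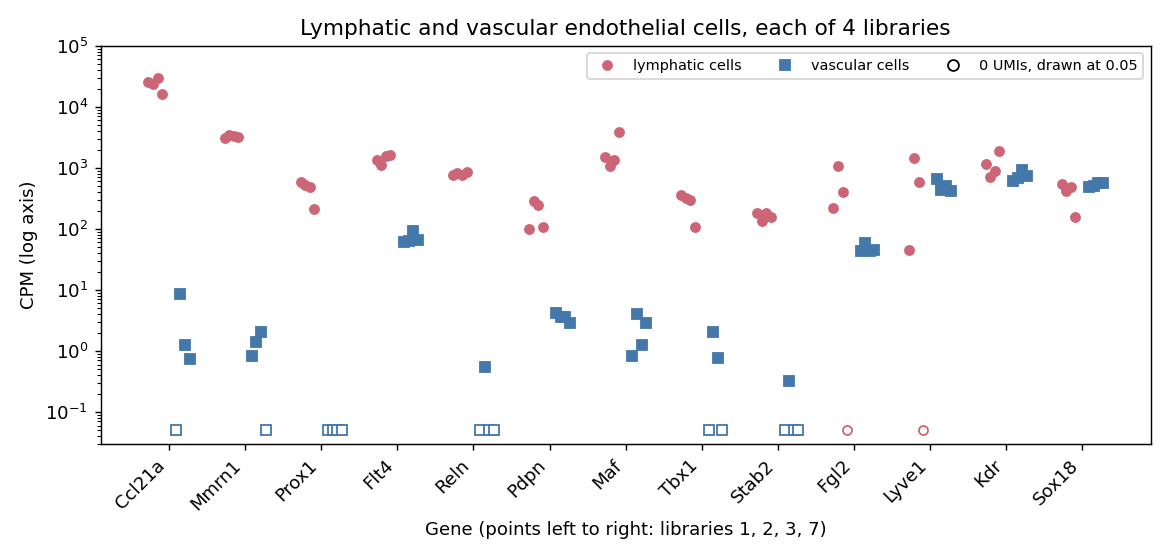
CPM on a log axis of 13 genes in lymphatic (circles) and vascular (squares) endothelial cells, 1 point for each of libraries 1, 2, 3 and 7, with open symbols for 0 UMIs. Ccl21a, Mmrn1 and Prox1 are separate by the choice of the cells, Flt4, Reln, Pdpn, Maf, Tbx1 and Stab2 are also separate in every library, and Lyve1, Kdr and Sox18 overlap.

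In the list of 18 lymphatic identity genes, 13 were called higher and none lower, with a median log2 ratio of 4.28. Nrp2 was at 950 against 44.8 CPM (21.2-fold, 19.4 to 23.2), Flt4 at 1185 against 69.9 (16.9-fold, 15.7 to 18.3) and Maf, a transcription factor of the lymphatic lineage, at 1178 against 2.70 (436-fold, 328 to 592). Without library 2, the log2 ratio of Nrp2 went from 4.41 to 5.22, that of Maf from 8.77 to 10.21 and that of Tbx1 from 8.05 to 9.84, and Stab2 had no UMI in the vascular cells and was at least 535-fold higher with a floor of 3 UMIs. Without library 1 the log2 ratio of Thy1 went from 8.92 to 9.71. Tbx1, a T-box factor needed for lymphatic growth, was at 321 against 1.21 CPM, Thy1 at 507 against 1.05, and the scavenger receptor genes Stab1 and Stab2 at 1207 against 120 and 144 against 0.165. Nr2f2 was at 658 against 62.6 CPM.

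5 genes of that list were not called, and they include well-known lymphatic genes. Lyve1 (ENSMUSG00000030787, chr7:110850607-110863239) was at 45.8, 1434, 579 and 0 CPM in the lymphatic cells of libraries 1, 2, 3 and 7, against 649, 436, 503 and 420 in the vascular cells. It was thus higher in lymphatic cells of libraries 2 and 3 and lower in those of libraries 1 and 7. Without library 2, its log2 ratio of 1.30 became -0.76. Of vascular cells 59.1% had a Lyve1 UMI, against 0.537% of B cells. The source of the Lyve1 UMIs in vascular cells was not tested. Sox18, which acts upstream of Prox1, was at 432 against 523 CPM and Hhex at 77.3 against 85.4. Fgl2 reached 220, 1083, 398 and 0 CPM against 51.7 over all vascular cells, and Clca3a1 was at 0 in libraries 3 and 7.

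Growth factor receptors were divided between the vessel types. Of 12 genes tested in the list of 18, 3 were higher and 7 lower, with a median log2 ratio of -2.40. Flt4, Nrp2 and Angpt2, a ligand of the Tie2 receptor, were higher, the last at 178 against 24.6 CPM (7.20-fold, 6.12 to 8.46, a log2 ratio of 2.85 that was 2.06 without library 2 and 3.52 without library 3). Flt1 (VEGFR1) was at 25.8 against 815 CPM (31.6-fold lower, 22.6 to 45.6) and Nrp1, the co-receptor of VEGF-A, at 18.2 against 718 CPM (39.5-fold lower, 26.5 to 61.6). Nrp1 and Nrp2 thus lay at opposite ends of the tested genes of the list over all libraries together. The lowest gene was Pdgfb without library 2 (a log2 ratio of -6.665) and Vegfc without library 3 (-5.71). Kdr (VEGFR2) was at 1181, 707, 886 and 1916 CPM in lymphatic cells and 601, 696, 908 and 733 in vascular cells, and the classes overlapped. Tek (Tie2) was 5.05-fold lower (4.275 to 6.004) and Ptprb, a phosphatase that restrains it, 7.73-fold lower (6.998 to 8.558), while Tie1 was at 350 against 392 CPM. The ligand gene Vegfc had 3 UMIs in the lymphatic cells, or 2.27 CPM, against 80.6 CPM in vascular cells (35.4-fold lower, 12.1 to 172), a log2 ratio of -5.15 that was -4.09 without library 2.

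Among transcription factors, 26 of 30 were tested, 5 were higher, 8 were lower, and the median log2 ratio was -0.21. Nr2f2, Maf, Tbx1, Foxp2 and Meox1 were higher, Foxp2 at 68.2 against 0.992 CPM. Foxf1, a factor of lung capillary endothelium, was at 9.86 against 648 CPM (65.7-fold lower, 38.4 to 123), Epas1 (HIF-2alpha) was 20.4-fold lower (17.9 to 23.3) and Sox17, an arterial factor, 9.68-fold lower (7.07 to 13.6). Klf2, which responds to flow, was at 1191 against 1523 CPM and was not called.

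For genes of valves and collecting vessels the picture was mixed, with 3 of 16 tested genes higher, 4 lower and a median of -0.12. Among all tested genes, 6.24% were higher and 10.5% lower. Gja1, a gap junction gene, was at 454 against 9.54 CPM (47.6-fold, 40.1 to 56.7), Itga9, an integrin of valve leaflets, at 265 against 21.1, and Celsr1, a planar polarity receptor, at 69.0 against 2.15. Gata2 was at 34.9 against 347 CPM (9.95-fold lower, 7.45 to 13.6) and was lower in each library, with a log2 ratio of -3.31 that was -3.93 without library 2. Foxc2 had 51 UMIs in 34 cells, 33 of which were in library 2, and its mean of the 2 classes fell under the limit of 25 CPM.

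Of 30 genes for leukocyte traffic 15 were tested, of which 9 were lower and 1 higher, with a median of -1.53. Some of the lower genes, among them Vcam1 and Cx3cl1, passed the filter through their level in vascular cells alone. Such genes could only be called lower. Cd274, also called lower, fell under the filter without library 2 and without library 3. The gene called higher was Il7, a cytokine that sustains T cells and innate lymphoid cells, at 64.1, 101, 97.6 and 160 CPM in libraries 1, 2, 3 and 7 against 2.70 over the vascular cells (36.5-fold, 26.1 to 51.8). Cxcl12 was 8.56-fold lower (7.26 to 10.2), Cx3cl1 had 2 UMIs and the adhesion molecule Vcam1 had none, at least 35.6-fold lower when the lymphatic class is set to a floor of 3 UMIs. Without library 2 that limit was 7.13-fold, and the log2 ratio of Cxcl12 went from -3.10 to -4.05. Cx3cl1 then had no UMI and was at least 4.597-fold lower with the same floor. Without library 3 Cx3cl1 fell under the filter with a log2 ratio of -4.63 in place of -5.00. Icam1 was at 93.3 against 231 CPM (2.48-fold lower, 2.07 to 2.99), and its log2 ratio of -1.31 was -2.05 without the cell rich in Scgb1a1 and -2.09 without library 2. The chemokine scavengers Ackr2 and Ackr4 stood at 93.3 against 53.5 CPM and at 5.31 against 18.5 CPM. Spns2, which exports the lipid sphingosine 1-phosphate, was at 100.1 against 161 CPM, with a log2 ratio of -0.68 that was -1.49 without library 2.

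Junction genes were lower in 6 of 14 tested cases and higher in 1 (2 without library 7), with a median of -0.75. Cldn5, which helped to choose the vascular cells, was close at 2927 against 3515 CPM. Jam2 had 1 UMI in the lymphatic cells against 124 CPM in vascular cells (164-fold lower, 29.4 to 6487), Esam was 24.9-fold lower (18.1 to 35.2) and Tjp1 2.18-fold lower (1.93 to 2.48). Without library 2, Jam2 had no UMI and was at least 10.7-fold lower, and the log2 ratio of Esam went from -4.64 to -6.68. Cdh5, the cadherin of endothelial junctions and also used in the choice of vascular cells, had a UMI in 93.5% of lymphatic cells.

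Matrix genes ran the other way, with 13 of 26 tested genes higher, 8 lower and a median of 1.39. Lama4, a laminin chain of vessel walls, was at 339, 423, 384 and 373 CPM in libraries 1, 2, 3 and 7 against 16.9 over the vascular cells (24.3-fold, 21.1 to 28.0). Ltbp4, which helps elastin assemble, was at 1039 against 161 CPM (6.47-fold, 6.06 to 6.90), Fbln5 at 335 against 82.5 (4.06-fold, 3.65 to 4.52), Fbln2 at 229 against 24.0, and Emilin1, a ligand of the Itga9 integrin at valves, at 171 against 56.6. Without library 2 the log2 ratio of Fbln2 went from 3.26 to 2.19, that of Fbln5 from 2.02 to 3.09, that of Emilin1 from 1.59 to 2.20 and that of Sparcl1 from -4.45 to -6.57. Elastin itself (Eln) was lower, at 100.1 against 216 CPM, and was not called without library 7 (a log2 ratio of -0.88 against -1.11). The basement membrane gene Col4a1 was 2.37-fold lower (2.18 to 2.59) and Sparcl1 21.8-fold lower (14.7 to 34.1).

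Proteases and their inhibitors, which act on lung matrix, moved in both directions. Of 17 tested genes in the list, 7 were higher and 3 lower, with a median of 0.58, beside 6.24% and 10.5% of all tested genes. Ctsl, which encodes cathepsin L, was at 503, 384, 509 and 319 CPM in lymphatic cells and at 218, 296, 391 and 239 CPM in vascular cells. It was higher in each library by less than 2-fold over all (1.37-fold, 1.25 to 1.496) and so was not called. Ctsb was at 506 against 153 CPM, a log2 ratio of 1.73, Ctsd was higher by 2.67-fold (2.52 to 2.83) and the membrane protease Mmp14 7.46-fold (6.45 to 8.61), with Mmp14 values of 934, 142, 209 and 798 CPM that varied between libraries. The inhibitor Timp3 had a UMI in every one of the 123 cells, at 1272, 1728, 2538 and 2182 CPM, and was 3.40-fold higher (3.25 to 3.56). Timp2 was at 898 against 367 CPM, also higher. Without library 2 the log2 ratio of Ctsd went from 1.42 to 2.05 and that of Mmp14 from 2.90 to 3.87.

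Of 16 tested coagulation and lipid genes, 9 were lower and 1 higher (3 without library 7). The median was -1.76, and -2.81 without library 2. Vwf was at 18.96 against 1018 CPM (53.7-fold lower, 36.4 to 83.0), Thbd at 145 against 1198, and the fatty acid carrier Cd36 at 153 against 1955 CPM (12.8-fold lower, 11.1 to 14.7). Apold1 was higher, at 364 against 53.3 CPM, with a log2 ratio of 2.77 that was 1.39 without library 2. F8, which encodes clotting factor VIII, was at 183, 130, 279 and 0 CPM against 2.37 over the vascular cells (62.7-fold, 44.9 to 89.4) and was not called. The water channel gene Aqp1 was at 2286 against 1567 CPM.

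**Figure D3:**
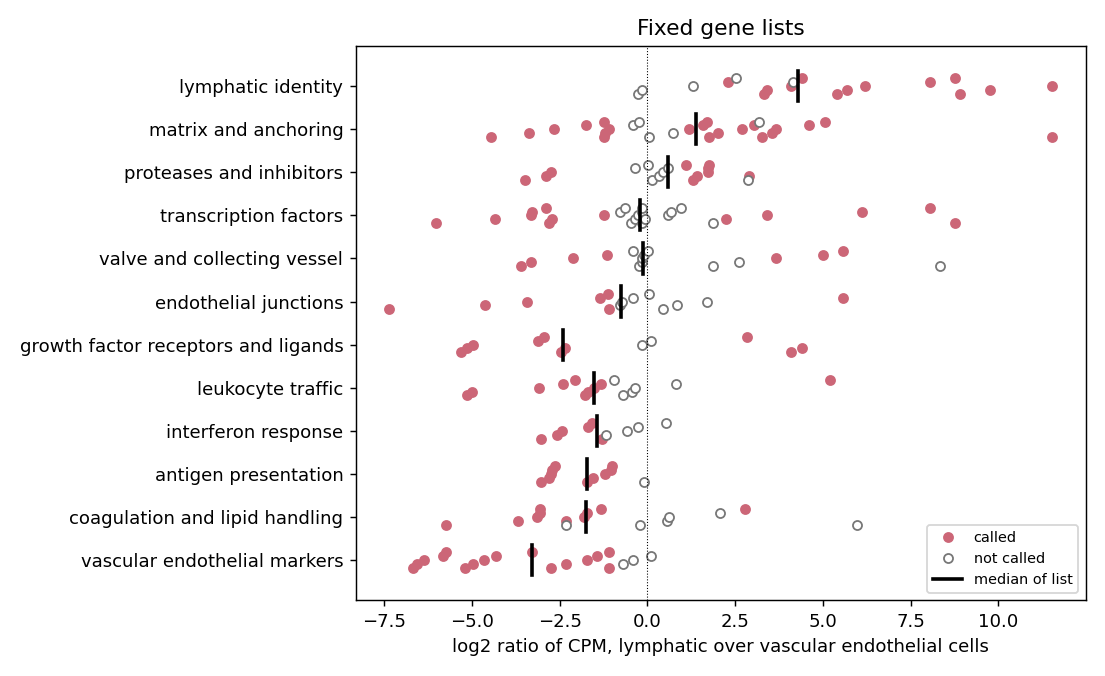
Log2 ratio of CPM in lymphatic over vascular endothelial cells for each tested gene of 12 gene lists (filled, called; open, not called), with the median of each list as a black bar. Medians run from 4.28 for lymphatic identity to -3.27 for vascular endothelial markers, beside -0.0071 over all genes.

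Antigen presentation genes were lower in 10 of 11 tested cases and higher in none, with a median of -1.72, and without library 2 in 6 of 10, where H2-K1, H2-D1 and B2m were under 2-fold and Ciita fell under the filter. Cd74, the invariant chain of MHC class II, was at 192, 213, 62.8 and 106 CPM in lymphatic cells and at 1205, 1941, 1027 and 1715 CPM in vascular cells, or 8.17-fold lower (7.22 to 9.28) over all libraries. H2-Ab1 was 6.22-fold lower (5.29 to 7.38), and the class I gene H2-K1 was at 1360 against 3128 CPM (a log2 ratio of -1.20, which was -0.72 without library 2). Interferon response genes were lower in 6 of 10 tested cases and higher in none, with a median of -1.43. The list of 19 vascular markers held 16 genes that were lower, with a median of -3.27, among them Ly6c1 (56.2-fold lower, 40.7 to 79.8, a log2 ratio of -5.81 that was -7.02 without library 2) and Aplnr, which had no UMI in lymphatic cells and was at least 82.9-fold lower with the floor of 3 UMIs, or 18.8-fold without library 2.

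By size of the difference, the called genes furthest above vascular cells were Gm525 (376 UMIs against 1), Reln, Ptx3, 1110032F04Rik, Gm10600, Apba2, Stab2, Gm21541, Slc45a3, Pcsk6, Dtx1, Hoxd9, Kcnj8, Nav3 and Thy1. Gm21541 and Gm10600 belong to the region of Ccl21 copies described above, and Ccl21a chose the cells. Without library 2, Gm525 and 1110032F04Rik had no UMI in the vascular cells and were at least 765-fold and 251-fold higher, and the log2 ratio of Ptx3 went from 11.20 to 12.32. Ptx3, a secreted pattern recognition protein, was at 705, 177, 418 and 1011 CPM in libraries 1, 2, 3 and 7. Pcsk6, a protein convertase, was at 339, 324, 481 and 266 CPM and had 8 UMIs in all vascular cells (774-fold, 389 to 1804, a log2 ratio of 9.60 that was 10.83 without library 2). Apba2 had 216 UMIs and Hoxd9, a homeobox factor, had 123 UMIs, with none in vascular cells, so they were at least 991-fold and 564-fold higher, or 623-fold and 273-fold without library 2. The called genes furthest below were Slc6a2, Samd5, Jam2, Cytl1, Nostrin, Aard, Apln, Adgrl3, Car4, Adrb1, Aplnr, Serpinb1a, Klk8, Tspan8 and Dach1, each with 6 UMIs or fewer in the lymphatic cells. The hemoglobin genes Hba-a1 and Hbb-bs, not called, had log2 ratios of -7.39 and -7.35, which were -3.09 and -2.30 without library 2. Without library 2, Slc6a2, Jam2, Nostrin, Aard, Apln, Car4, Aplnr, Serpinb1a, Klk8 and Dach1 had no UMI in the lymphatic cells, so their folds were limits only. With the floor of 3 UMIs these limits ran from 4.49-fold lower for Klk8 to 37.45-fold lower for Car4. Slc6a2 was at least 17.3-fold and Apln at least 7.04-fold lower, and Klk8 fell under the filter. Of these, Car4 and Apln are known markers of aerocytes.

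Vascular cells are themselves divided, so 3 subtypes were compared in turn. General capillary cells numbered 453 (at least 2 UMIs of Gpihbp1 and none of Car4, Ednrb or Vwf), aerocytes, the capillary cells specialised for gas exchange, 239 (at least 2 UMIs of Car4 and 1 of Ednrb, none of Vwf), and large-vessel cells 601 (at least 3 UMIs of Vwf, none of Car4 or Ednrb). Lymphatic cells had 407 genes higher (6.47%) and 641 lower (10.2%) than general capillary cells, 440 (6.95%) and 748 (11.8%) against aerocytes, and 389 (6.19%) and 595 (9.47%) against large-vessel cells. Of 5910 genes tested against each subtype, 292 were higher than all 3 and 372 lower than all 3.

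**Figure D4:**
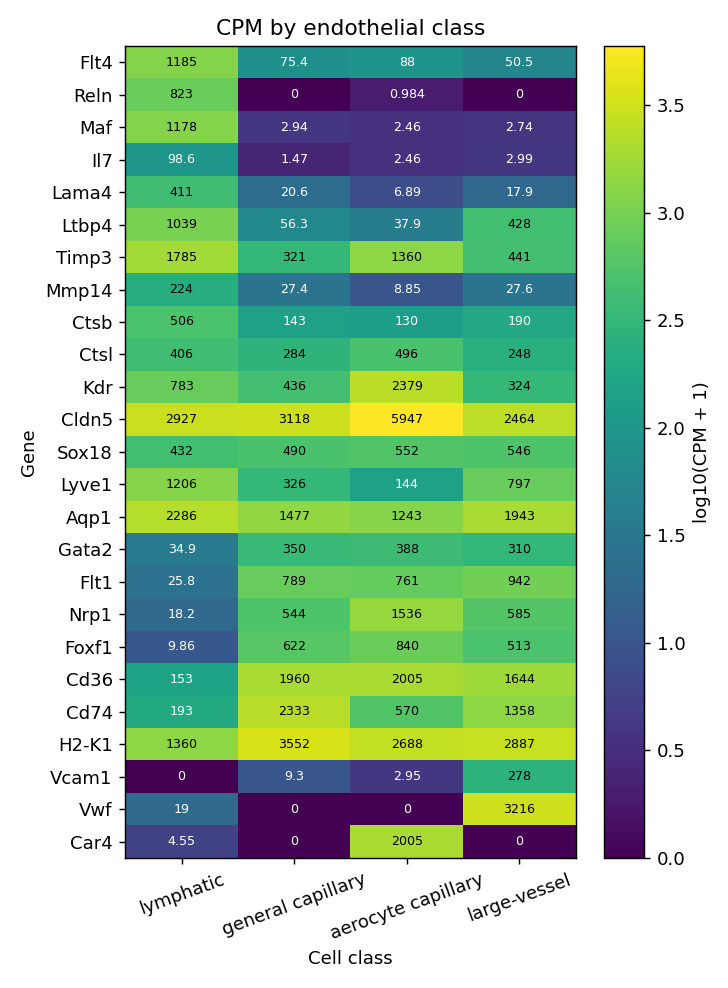
CPM of 25 genes (rows) in lymphatic, general capillary, aerocyte and large-vessel endothelial cells (columns), with the value printed and the color on a log10(CPM + 1) scale. Flt4, Reln, Maf and Il7 stand out in the lymphatic column, Flt1, Nrp1, Foxf1 and Cd36 in the other columns, and Kdr and Timp3 are also high in aerocytes.

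The subtypes changed the reading of several genes. Kdr, at 783 CPM in lymphatic cells, was at 436 in general capillary cells, 2379 in aerocytes and 324 in large-vessel cells, so it was called lower than the aerocytes and higher than the large-vessel cells. Timp3 was at 1360 CPM in aerocytes, near its 1785 in lymphatic cells, and at 321 and 441 in the other subtypes. Fbln5 was at 296 CPM in large-vessel cells, near its lymphatic 335, and at 3.92 and 3.44 in the capillary subtypes. Vegfc was 172.8 CPM in large-vessel cells and 10.8 in aerocytes. Lyve1 was at 797 CPM in large-vessel cells, 326 in general capillary cells and 144 in aerocytes. Nr2f2, which in blood vessels is a venous factor, was at 165 CPM in large-vessel cells and at 23.5 and 11.8 in the capillary subtypes, all called lower than its 658 in lymphatic cells.

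Lyve1 varied widely among the lymphatic cells. It had a UMI in 89 of the 123 cells with a median of 4 UMIs, and the 10 highest cells held 906 of the 1590 UMIs, or 57.0%. After thinning to 1000 UMIs, 38.0% of the cells kept a UMI. In library 2, the thinned cells with a Lyve1 UMI (42) had 2190 CPM of Fgl2 against 764 in those without (55), a ratio of 2.87 (1.97 to 4.24). At full depth and without the cell rich in Scgb1a1, the values of Fgl2 were 1340 and 424 CPM over 75 and 23 cells, a ratio of 3.16 (2.50 to 4.07). Both ways of counting thus gave more Fgl2 in the cells with Lyve1. Fgl2 was not alone, since Nts and Klf4 were also higher both ways. Apoe was lower, with a ratio of 0.103 (0.0719 to 0.145) at full depth and 0.154 (0.0173 to 0.649) after thinning. The thinned Apoe ratio rests on 2 and 17 UMIs. Gja4, a gap junction gene, had a ratio of 3.63 (2.08 to 6.94) at full depth and 1.41 (0.615 to 3.26) after thinning, and the secreted protein gene Ptx3 went the other way with 0.299 (0.221 to 0.405) and 0.491 (0.0839 to 2.05), so the thinned intervals of these 2 genes included no difference. Igfbp5, which had a UMI in 27.6% of the cells and up to 156 in a cell, changed with the count, at 0.945 (0.795 to 1.13) at full depth and 3.93 (2.73 to 5.77) after thinning.

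Foxc2 divided the cells of library 2 in another way. At full depth and without the cell rich in Scgb1a1, the 33 cells with a UMI had 1848 CPM of Igfbp5 against 378 in the 65 without (4.89-fold, 4.20 to 5.70), 154 against 63.8 CPM of Clca3a1 (2.42-fold, 1.57 to 3.75) and 258 against 597 CPM of Gja1, a ratio of 0.432 (0.339 to 0.547). The Igfbp5 UMIs came from 14 of the 33 cells and 15 of the 65, with up to 156 in a cell, so that few cells set this ratio. The medians of 8293 and 6670 UMIs differed, and 2.48% of all lymphatic cells kept a Foxc2 UMI after thinning. The 3 such cells of library 2 had no Igfbp5 UMI, against 1702 CPM in the other 94, which is too few cells to give a direction. After thinning, the ratios of Clca3a1 (2.41, 0.0567 to 16.05) and Gja1 (0 to 2.81) also included no difference. Of the 34 Foxc2 cells in all libraries, 27 also had Lyve1.

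**Figure D5:**
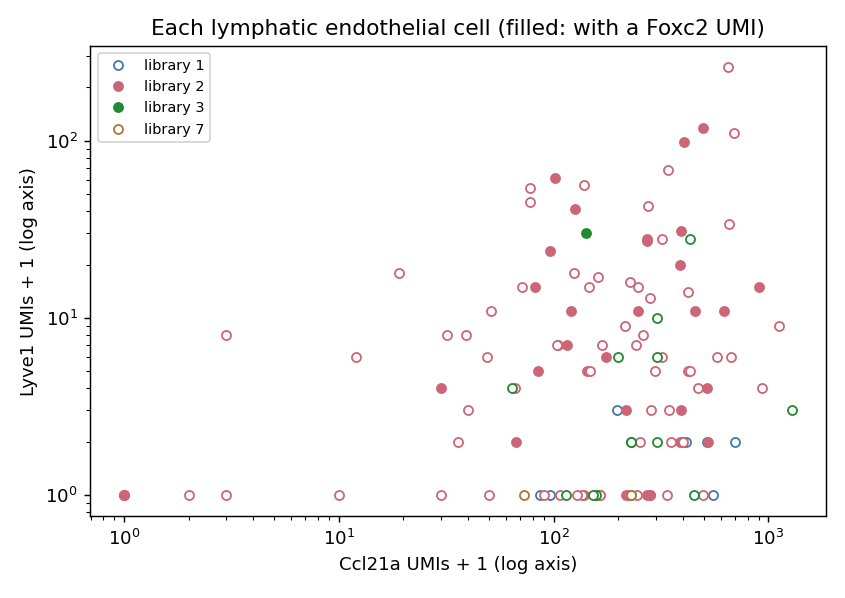
Lyve1 against Ccl21a UMIs in each of the 123 lymphatic endothelial cells on log axes, with 1 added to each count, by library, with filled points for cells with a Foxc2 UMI. Lyve1 spreads from 0 to 259 UMIs, 34 cells lie at 0, and filled points are found over most of the range.

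Markers of other cell types were mostly low in the lymphatic cells. Of 12 leukocyte markers 2 passed the filter, Mrc1 (328 against 7.77 CPM, and also in the lymphatic list) and Lyz2 (162 against 575). Without library 2 the log2 ratio of Mrc1 went from 5.40 to 7.25, that of Lyz2 from -1.82 to -2.89 and that of Npnt, a fibroblast marker below, from 3.20 to 4.70. Summed over the list, the level was 577, 542, 704 and 905 CPM in libraries 1, 2, 3 and 7. The 12 fibroblast and mesothelial markers summed to 300 CPM against 131 in the vascular cells, of which Npnt, called higher, gave 196, and Msln, Upk3b, Wt1 and Lrrn4 were at 0. The 10 mural markers summed to 18.2 CPM and the 10 blood and platelet markers to 8.34, below the 136 and 588 CPM of the vascular cells. Epithelial markers summed to 220, 34294, 1193 and 266 CPM in libraries 1, 2, 3 and 7, or 27386 CPM over all against 11359 in the vascular cells. Scgb1a1 gave most of this in libraries 1, 2 and 3, and in library 2 most of it came from the single cell described above. Scgb1a1 had a UMI in 95.9% of lymphatic cells and also in 85.4% of B cells. Whether its low counts were free RNA was not tested. The part of these transcripts in the differences between classes was not tested.

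Genes of the early stress response differed by library in both classes. Fos was at 54.9, 1038, 976 and 2022 CPM in the lymphatic cells of libraries 1, 2, 3 and 7 and at 105, 376, 469 and 167 CPM in the vascular cells. Its direction was reversed in library 1, and it was not called. Of 12 tested genes in that list 1 was higher and 2 lower, with a median of 0.53, beside 6.24% and 10.5% of all tested genes. In the same list, 3 were higher without library 1 and 1 lower without library 3. Of 11 genes of dividing cells 2 passed the filter and neither was called, and without library 2, 6 passed and 1 was lower.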

How the data were processed

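The authors' deposited matrix holds whole-number UMI counts per gene and cell, made with Cell Ranger 3.1.0, per the file header, and STAR on mm10, per the submitters' processing notes, with reads down-sampled when libraries were joined. It covers 31053 genes and 37344 barcodes of 7 libraries, of which 4 are lung libraries with lung cell types and 3 are rich in hemoglobin. Positions come from GENCODE M21 (GRCm38), which lists 31011 of these genes.

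From the counts, CPM was summed per class and compared as a ratio with an exact conditional 95% interval. A class at 0 was set to a floor of 3 UMIs over the class. Genes under a mean of 25 CPM over both classes were left out, so a gene could pass through its level in 1 class alone. Such a gene could be called in 1 direction only, and the counts of the lists include such genes. Named genes are examples from 19 fixed lists and the 15 largest differences among called genes in each direction, leaving out the genes that chose the cells. Genes outside these that are named were chosen after their values were seen. The members and lists were chosen with earlier results of these data known. No test was made, since cells are not replicates. In simulated counts of the comparison with vascular cells, 99% of genes raised 4-fold and 95% of those lowered 4-fold were called, and none of the unchanged ones. These counts held counting error alone, from the same gene means in every library, and the changed genes lay above a higher CPM limit. The simulation therefore cannot show how often variation between cells or libraries would give a call. Python 3.11.15, numpy 2.4.6, scipy 1.17.1, pandas 2.3.3 and matplotlib 3.10.9 were used. The values of 1 gene of the lists are not reported here.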

Additional observations from a re-analysis of the deposited data

Results flagged for a closer look

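Transcripts of the marker genes were also present in the 3 hemoglobin-rich libraries, which enter no comparison above and in which no cell met the rule. Mmrn1 had 220 UMIs in library 4, 982 in library 5 and 726 in library 6, in 192, 699 and 558 cells, above the 3 UMIs that a count of 0 allows. Prox1 had 4 UMIs in library 5. Ccl21a was at 0 in each of these libraries and Flt4 had 0, 1 and 0 UMIs. Reln had 23, 22 and 28 UMIs and Lyve1 had 15, 11 and 10, each fewer than Mmrn1. Multimerin is also known as a protein of platelets and their precursors. The source of the Mmrn1 transcripts was not tested.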

How the results depend on the processing

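No paired analysis was possible because the matrix carries library numbers and no sample or replicate of the labels. The number of cells was 51 in place of 123 when Epcam, Sftpc, Cd79a, Cd3e, Acta2 and Msln also had to be at 0, and between 24 (without library 2) and 121 when a library was left out. Leaving out a library gave 397 to 556 genes higher and 672 to 753 lower. Genes higher than vascular cells numbered 606 (9.45% of those tested) with libraries weighted equally, 155 (8.16% of 1900) at a mean of at least 100 CPM and 125 (1.99%) with cells thinned to 1000 UMIs. Genes lower numbered 1366 (7.66% of 17823) with no filter on CPM, 282 (14.8% of 1900) at a mean of at least 100 CPM and 437 (6.91%) at 3-fold. With libraries weighted equally, 621, 663 and 591 genes were higher than general capillary, aerocyte and large-vessel cells. The causes were not tested. The share of B cells with a Ccl21a UMI was 0.338% after thinning, and the share of lymphatic cells with a Lyve1 UMI was 72.4% at their own depth. Of 1176 log2 ratios of 56 named genes over 21 settings, 907 stayed within the counting interval, 269 moved and no called gene changed direction. Without the cell rich in Scgb1a1, an alternative chosen after seeing the data, 421 genes were higher and 660 lower, and the log2 ratio of Scgb1a1 went from 1.70 to -3.90. In library 2 alone, also chosen later, 581 were higher and 728 lower. Library 7 holds 2 cells and 18794 of the 1318600 UMIs, so a gene at 0 there may be undetected at this depth.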
